A study of Mus musculus with 30 samples.

Results

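Eicosanoids are short-range lipid signals made from arachidonic acid and related fatty acids. A cytosolic phospholipase A2 frees the fatty acid from membrane phospholipid, cyclooxygenases turn it into prostaglandin H2, terminal synthases turn that into single prostaglandins, and lipoxygenases open the separate routes to leukotrienes and hydroxy fatty acids. In the prostate these mediators are known from inflammation and smooth muscle tone, and the fatty acids of the diet supply their substrates, n-3 acids competing with arachidonic acid for the same enzymes. The 10 genes described here were chosen by symbol, out of 39179 gene identifiers in the count tables. They are Pla2g4a, which encodes the releasing phospholipase, the cyclooxygenases Ptgs1 and Ptgs2, the prostaglandin synthases Ptges and Ptgds, the prostaglandin-inactivating dehydrogenase Hpgd, the leukotriene genes Alox5 and Alox5ap, and the lipoxygenases Alox12 and Alox15.

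The data were RNAseq read counts from the ventral prostate (VP) of 30 male C57BL/6 mice, with 5 mice in each of 6 groups. After weaning the mice received a normolipidic diet made with linseed oil (LO, rich in n-3 fatty acids), soybean oil (SO, rich in n-6 fatty acids) or lard (PF, pork fat, rich in saturated fatty acids), for 12 or 32 weeks. No group received a standard chow, so each diet was compared with the other diets, and the 2 lengths of feeding were compared within a diet. The groups differ in the length of feeding, in age and possibly in the day of processing, and these cannot be told apart in the comparisons of 32 with 12 weeks.

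Between 27590631 and 41301707 read pairs per mouse were assigned to genes. Markers of the secretory epithelium were present in every mouse, with a summed level between 107400 and 335800 CPM (a gene's counts scaled to a common library size), and the 7 seminal vesicle markers stayed at or under 0.306 CPM in sum. Each library correlated with the others of its group at a mean r between 0.964 and 0.984, lowest for mouse 1 of PF at 32 weeks. The mice numbered 1 also had the lowest mean r in LO and SO at 32 weeks (0.968 in both), and without mice numbered 1 the number of the 10 genes past the threshold was still 0 in every comparison.

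All 10 genes were counted in every mouse and passed the filter on low counts in each fit, so none had too few counts for the main test, by edgeR. The alternative test, DESeq2, gave no adjusted p for Ptgds and Alox5 in PF against LO at 12 weeks. It gave none for Ptgds in PF against SO at 32 weeks. Ptgds had the fewest reads, 13 to 51 per mouse with a median of 25.5, and Alox5 had 16 to 91 with a median of 36.5. At those medians counting alone gives a coefficient of variation of 19.8% for Ptgds and 16.6% for Alox5, beside a mean of 28.8% and 38.4% among mice of a group. For the other 8 genes the lowest count in any mouse was 47, in Ptgs2.

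On GRCm38, in GENCODE M21, the genes lie on 6 chromosomes. Pla2g4a (chr1:149829618-149961290, − strand) and Ptgs2 (chr1:150100031-150108227, + strand) are close on chromosome 1, and Alox12 (chr11:70241457-70255353) and Alox15 (chr11:70344152-70352031), both on the − strand, are close on chromosome 11. Chromosome 2 holds Ptgs1 (chr2:36230426-36252272, + strand), Ptges (chr2:30889471-30929863, − strand) and Ptgds (chr2:25466709-25470046, − strand). Hpgd is at chr8:56294585-56321043 (+ strand), Alox5 at chr6:116410077-116461178 (− strand) and Alox5ap at chr5:149264767-149288153 (+ strand). Ptges shares its locus with the pseudogene Gm13400 on the same strand, which had at most 12 counts in any mouse, and no other gene of the 10 overlaps a protein-coding gene.

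Levels were compared between genes per kilobase of exon, as mean ± SD over all 30 mice. Hpgd was the most abundant at 31.5 ± 10.2 CPM per kb, followed by Ptges, the inducible microsomal prostaglandin E synthase, at 18.5 ± 3.495 CPM per kb. Pla2g4a followed at 5.66 ± 0.719, Alox5ap at 3.99 ± 1.497 and Ptgs1 at 2.69 ± 0.770 CPM per kb. The transcripts of the inactivating enzyme and of the prostaglandin E synthase were therefore far above those of the cyclooxygenases that feed them. Alox15 stood at 1.47 ± 0.822, Alox12 at 1.22 ± 0.302 and Ptgs2 at 0.826 ± 0.541 CPM per kb. Ptgds, the lipocalin-type prostaglandin D synthase, at 0.494 ± 0.152 and Alox5 at 0.318 ± 0.140 CPM per kb closed the order. Of the neighbours in this order, Ptges and Pla2g4a were the only pair whose ranges over the mice did not overlap (lowest Ptges 11.8, highest Pla2g4a 7.36 CPM per kb), and all other neighbours overlapped.

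**Figure D1:**
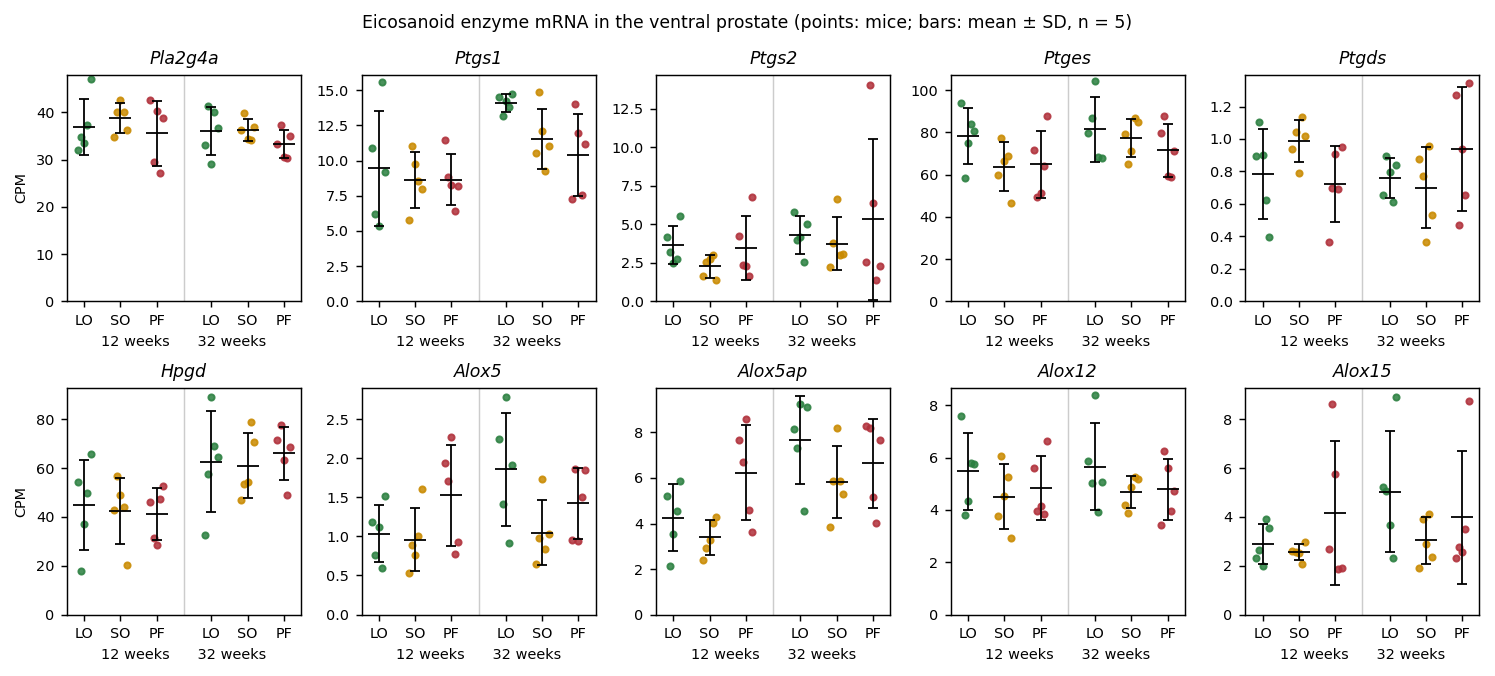
Level of each of the 10 genes in CPM (vertical axis, from 0, a separate scale in each panel) in the VP of mice given LO, SO or PF for 12 or 32 weeks. Points are mice and bars are mean ± SD of 5 mice; the groups overlap in every panel, and single high mice stand out for Ptgs2 (14.0 CPM) and Alox15 (8.76 CPM) in PF at 32 weeks.

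The first question was whether the diet changed these genes at a given time. None of the 10 differed between diets at an adjusted p under 0.05 in edgeR's quasi-likelihood test, in any of the 6 comparisons of 2 diets. The share of all genes called by the same test was 0% at both times in PF against SO, in PF against LO and in LO against SO, so the absence of a call did not set these genes apart. DESeq2 also called 0 of the 10 in each, against 1.24%, 0.524% and 0% of all genes in the comparisons PF to SO, PF to LO and LO to SO at 12 weeks and 0.699%, 0.526% and 0.0433% at 32 weeks. The Ptgds and Alox5 values without an adjusted p, named above, count there as not called. At an unadjusted p under 0.05 there was 1 of 10 in PF against SO at 12 weeks (Alox5ap, background 7.99%), 1 in PF against LO at 32 weeks (Ptgs1, background 8.6%), and 1 in LO against SO at 32 weeks (Alox5, background 3.48%), and 0 in each of the other 3 comparisons (background 9.24% in PF against LO and 4.28% in LO against SO at 12 weeks, 10.8% in PF against SO at 32 weeks). No gene of the 10 had groups that did not overlap, against 1.57%, 1.55% and 0.777% of all genes in the same order at 12 weeks and 2.16%, 1.12% and 0.644% at 32 weeks.

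**Figure D2:**
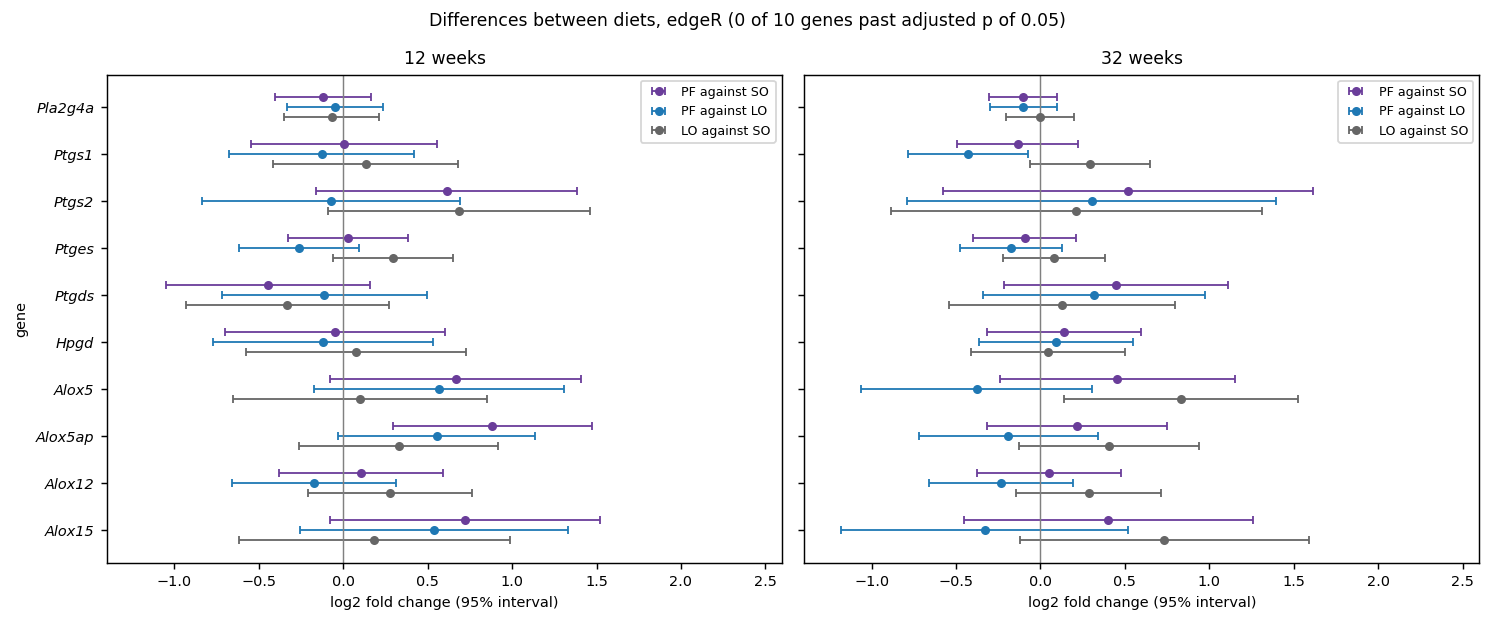
log2 fold changes between diets (points) with 95% intervals (bars) from edgeR at 12 weeks (left) and 32 weeks (right), first diet minus second, for 5 mice per diet. Intervals are narrow for Pla2g4a and widest for Ptgs2 at 32 weeks, and only those of Alox5ap (PF against SO, 12 weeks), Ptgs1 (PF against LO, 32 weeks) and Alox5 (LO against SO, 32 weeks) leave out 0.

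Pla2g4a was the steadiest of the genes, with a mean coefficient of variation within groups of 12.2%. It ranged from 27.1 to 47.0 CPM over all mice, and its 6 diet log2 fold changes lay between −0.12 and −0.0037. Their 95% intervals together covered −0.40 to 0.23, or folds from 0.757 to 1.18, so larger differences in the transcript of the releasing enzyme lie outside those intervals. From 12 to 32 weeks it moved by −0.035 in LO (SE 0.12), −0.094 in SO (SE 0.12) and −0.095 in PF (SE 0.12).

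The cyclooxygenases differed in spread. Ptgs1, the constitutive form, had a mean coefficient of variation within groups of 23.0%, and Ptgs2, the form induced by growth factors and inflammatory signals, had one of 49.8%. The windows at their start sites are given because the isoenzymes catalyse the same reaction. They are 280 bases from RefSeq on GRCm38.p6, 250 before the start and 30 from it on, at chr2:36230176-36230455 for Ptgs1 and chr1:150099781-150100060 for Ptgs2, both on the + strand and written 5′ to 3′. Capitals mark matches to 5 motifs, each searched on both strands.
Ptgs1: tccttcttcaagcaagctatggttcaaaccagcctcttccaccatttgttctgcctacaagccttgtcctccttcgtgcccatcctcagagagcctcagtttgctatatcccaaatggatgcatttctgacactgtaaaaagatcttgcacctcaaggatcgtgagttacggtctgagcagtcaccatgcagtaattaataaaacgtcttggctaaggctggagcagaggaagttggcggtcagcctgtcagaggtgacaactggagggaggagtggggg
Ptgs2: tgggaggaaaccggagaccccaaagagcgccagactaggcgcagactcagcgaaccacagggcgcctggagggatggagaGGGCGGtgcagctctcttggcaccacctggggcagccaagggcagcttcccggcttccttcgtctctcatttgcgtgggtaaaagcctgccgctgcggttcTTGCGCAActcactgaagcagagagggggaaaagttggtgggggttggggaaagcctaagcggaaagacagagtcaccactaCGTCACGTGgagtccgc
The Ptgs1 window, with a GC content of 49.6%, held none of the 5 motifs. The Ptgs2 window had a GC content of 61.4%, against a median of 52.5% over 32851 promoter windows of the same length, and held 4 of them, with positions counted from the start site. The GC box, searched as GGGCGG, began at base −170 and is found in 34.7% of all windows. The C/EBP palindrome TTGCGCAA began at −69 and is found in 0.18% of all windows. The core of a cyclic AMP response element, CGTCA, began at 14 and is found in 19.9% of all windows. It overlapped an E-box, CACGTG, which began at 17 and is found in 6.79% of all windows. The TATA box, searched as TATAAA and found in 13.1% of all windows, was in neither window, and bases beyond the windows were not searched. These are matches of letters and do not show that a factor binds there. The 5 motifs were a fixed list, so their number is no general comparison of the promoters. A link between the motifs and the spread was not tested.

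Ptgs1 was highest and least variable in LO at 32 weeks. Its levels in those 5 mice were 13.2, 13.8, 14.2, 14.6 and 14.7 CPM, against 7.29, 7.58, 11.2, 12.0 and 14.0 CPM in PF and 9.23, 10.5, 11.0, 12.1 and 14.9 CPM in SO. Most PF mice lay below the LO range, yet the groups overlapped, and the log2 fold change of PF against LO was −0.43 (SE 0.17; 95% interval −0.79 to −0.073; p 0.0215, adjusted p = 0.488 by edgeR). At 12 weeks Ptgs1 ranged from 5.36 to 15.6 CPM in LO, 5.77 to 11.1 in SO and 6.43 to 11.4 in PF, and its diet log2 fold changes lay between −0.13 and 0.13.

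Ptgs2 carried a few high mice. At 32 weeks it was at 1.36, 2.32, 2.55, 6.35 and 14.0 CPM in PF, 2.21, 3.03, 3.06, 3.81 and 6.61 CPM in SO, and 2.55, 3.94, 4.19, 5.04 and 5.80 CPM in LO. The PF group thus held both the lowest and the highest mouse of that time. The log2 fold change of PF against SO was 0.52 (SE 0.51; adjusted p = 0.745 by edgeR), and without mouse 2 of PF it was −0.24, so its sign rested on that mouse. The same held for Ptgs2 in PF against LO at 32 weeks (0.30 with mouse 2 of PF, −0.45 without it) and in 32 against 12 weeks in PF (0.62 and −0.14). At 12 weeks Ptgs2 was lowest in SO, at 1.37 to 3.03 CPM, against 2.48 to 5.56 CPM in LO and 1.66 to 6.76 CPM in PF. LO against SO was 0.69 on the log2 scale (SE 0.36; adjusted p = 0.999) and PF against SO 0.61 (SE 0.36; adjusted p = 0.838), both by edgeR, the latter 0.21 without mouse 5 of PF.

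Among the prostaglandin synthases, Ptges ranged from 46.5 to 105 CPM over the mice. Its diet differences were small, from −0.26 (PF against LO, 12 weeks) to 0.29 (LO against SO, 12 weeks) on the log2 scale, with intervals that together covered −0.62 to 0.65. Ptgds was low, from 0.362 to 1.35 CPM. Ptgds was lower in PF than in SO at 12 weeks by its point estimate (log2 −0.45, SE 0.28) and higher at 32 weeks (0.45, SE 0.31), and its change between the times was 0.87 (SE 0.42; 95% interval 0.011 to 1.73; p 0.0474, adjusted p = 0.525 by edgeR). The level in PF was 0.362, 0.690, 0.700, 0.909 and 0.953 CPM at 12 weeks and 0.471, 0.653, 0.939, 1.27 and 1.35 CPM at 32 weeks. In SO it was 0.790, 0.939, 1.02, 1.05 and 1.13 CPM at 12 weeks and 0.364, 0.529, 0.773, 0.876 and 0.959 CPM at 32 weeks, so the groups overlapped in both diets.

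Hpgd, the dehydrogenase that begins the breakdown of prostaglandins, showed no diet difference past the threshold, with diet log2 fold changes from −0.12 to 0.14 and intervals that together covered −0.77 to 0.72. It had higher means at 32 weeks in all 3 diets. In PF it was at 28.4, 31.5, 45.9, 47.3 and 52.7 CPM at 12 weeks and 49.1, 63.1, 68.5, 71.7 and 77.4 CPM at 32 weeks. The 2 groups overlapped only through 1 mouse at each end, and 24 of the 25 pairs of mice had the higher value at 32 weeks. The log2 fold change was 0.68 in PF (SE 0.28; p 0.0225, adjusted p = 0.408 by edgeR), 0.52 in SO (SE 0.28; adjusted p = 0.318) and 0.48 in LO (SE 0.28; adjusted p = 0.344).

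Alox5 encodes the 5-lipoxygenase that begins leukotriene synthesis, and Alox5ap the membrane protein that presents the fatty acid to it. In PF at 12 weeks Alox5ap was at 3.61, 4.58, 6.72, 7.69 and 8.60 CPM, against 2.41, 2.92, 3.29, 4.04 and 4.27 CPM in SO and 2.15, 3.52, 4.55, 5.22 and 5.86 CPM in LO. PF had the 3 highest mice of that time, while its lowest mouse lay within the SO range. PF against SO was 0.88 on the log2 scale, a fold of 1.84 (SE 0.28; 95% interval 0.29 to 1.47; p 0.00596, adjusted p = 0.261 by edgeR, 0.0836 by DESeq2), and PF was higher in 23 of the 25 pairs of mice. PF against LO was 0.55 (SE 0.27; adjusted p = 0.563), and LO against SO was 0.33 (SE 0.28; adjusted p = 0.999), all by edgeR.

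At 32 weeks the diet differences in Alox5ap were smaller, at 0.22 for PF against SO (SE 0.25), −0.19 for PF against LO (SE 0.25) and 0.41 for LO against SO (SE 0.25). Alox5 at 32 weeks was at 0.921, 1.41, 1.92, 2.25 and 2.79 CPM in LO and at 0.649, 0.839, 0.981, 1.03 and 1.74 CPM in SO. LO was the higher group, though the ranges overlapped, with a log2 fold change of 0.83 (SE 0.33; 95% interval 0.14 to 1.53; p 0.0220, adjusted p close to 1 by edgeR). In PF Alox5 was at 0.939, 0.949, 1.51, 1.85 and 1.86 CPM, between the other diets. At 12 weeks it was at 0.773, 0.925, 1.71, 1.94 and 2.27 CPM in PF, and PF against SO was 0.67 (SE 0.35; adjusted p = 0.728 by edgeR).

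Marker lists of several cell types moved with Alox5ap and Alox5, and their part in the levels was not tested. The macrophage list held 8 genes (Adgre1, Csf1r, Cd68, C1qa, C1qb, C1qc, Mrc1 and Lyz2), and all 8 passed the filter on low counts. Their summed level at 12 weeks ranged from 139 to 194 CPM in SO, 128 to 277 CPM in LO and 183 to 417 CPM in PF, and all 8 were higher in PF than in SO, with a median log2 fold change of 0.91 against −0.015 over all genes tested. At 32 weeks the summed level ranged from 201 to 478 CPM in SO, 174 to 783 CPM in LO and 226 to 503 CPM in PF, with 3 of 8 higher in PF than in SO. In PF against SO at 12 weeks all 4 B cell markers (median log2 fold change 2.31), all 5 T cell markers (1.19) and all 5 endothelium markers (0.43) were higher too, with 4, 4 and 4 of them at an unadjusted p under 0.05 and none called by edgeR. So were all 5 fibroblast (0.35), all 5 mast cell (0.33) and all 4 basal epithelium markers (0.24), while all 5 smooth muscle markers were lower (−0.13). In LO against SO at 32 weeks, where Alox5 was the higher in LO, all 8 macrophage markers (median 0.29), both neutrophil markers tested (1.24), all 3 eosinophil markers tested (1.08) and 4 of 5 mast cell markers (0.84) were higher in LO, and all T and B cell markers were lower. Lists other than leukocytes were higher in LO as well. These were all 4 red blood cell (1.04), both platelet markers tested (0.60), all 4 basal epithelium (0.30) and all 5 fibroblast markers (0.22). In bulk tissue, more cells of a type and more RNA of the gene per cell cannot be told apart.

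Alox12 and Alox15 encode lipoxygenases that oxidise arachidonic acid at other carbons than 5-lipoxygenase does. Alox12 ranged from 2.91 to 8.39 CPM over the mice, with a mean coefficient of variation within groups of 24.5% and diet log2 fold changes from −0.24 to 0.29. Alox15, the leukocyte-type enzyme in the mouse, varied most among mice of 1 group after Ptgs2, with a mean coefficient of variation of 43.6%. At 12 weeks it was at 1.85, 1.91, 2.69, 5.77 and 8.62 CPM in PF, against 2.05, 2.53, 2.55, 2.61 and 2.97 CPM in SO. In PF 2 mice lay far above all SO mice and 2 below all of them, and PF against SO was 0.72 on the log2 scale (SE 0.38; adjusted p = 0.721 by edgeR), or 0.26 without mouse 2 of PF. At 32 weeks it was at 2.30, 3.67, 5.07, 5.23 and 8.90 CPM in LO, 1.91, 2.35, 2.89, 3.93 and 4.13 CPM in SO, and 2.30, 2.55, 2.78, 3.49 and 8.76 CPM in PF. LO against SO was 0.73 (SE 0.40; adjusted p close to 1 by edgeR), and PF against SO was 0.40 (SE 0.40), or −0.11 without mouse 5 of PF.

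In sign, LO exceeded SO at 32 weeks in 9 of the 10 genes, against 49.3% of all genes tested, with a median log2 fold change of 0.25 against −0.0020. At 12 weeks it was 8 of 10, against 50.6% of all genes. In PF against LO, 3 of 10 were higher at either time, against 49.9% and 51.2% of all genes, and in PF against SO 7 of 10, against 44.8% at 12 weeks and 49.3% at 32 weeks. The comparisons at a time share mice, and some of the 10 genes varied together across mice, so these counts are not separate pieces of evidence.

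The second question was whether the genes changed with the length of feeding. In edgeR 0 of the 10 passed the threshold in any diet, against 2.7% of all genes in LO, 6.5% in SO and 0.0301% in PF. DESeq2 called 1 of 10 in LO (Alox5ap, adjusted p = 0.0345; background 6.48%) and 0 in SO (9.14%) and PF (0.308%). At an unadjusted p under 0.05 there were 3 of 10 in LO (Ptgs1, Alox5 and Alox5ap, background 20.5%), 1 in SO (Alox5ap, background 19.7%) and 1 in PF (Hpgd, background 10.2%). None of the 10 had groups that did not overlap, against 4.25% of all genes in LO, 7.43% in SO and 1.55% in PF. In sign, 8 of 10 were higher at 32 weeks in LO (47.8% of all genes), 8 in SO (49.2%) and 6 in PF (50.7%).

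**Figure D3:**
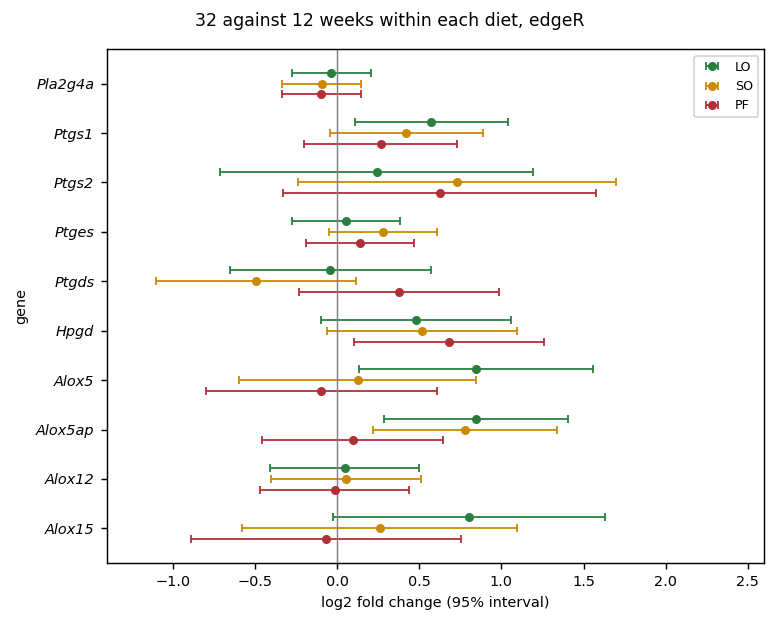
log2 fold change of 32 against 12 weeks of feeding within LO, SO and PF (points) with 95% intervals (bars) from edgeR, 5 mice per group. Alox5ap lies at 0.85 in LO and 0.78 in SO but at 0.095 in PF, and the point estimates of Pla2g4a and Alox12 are close to 0 in all 3 diets.

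Alox5ap was higher at 32 weeks in LO and SO by its point estimates. In LO it was at 4.54, 7.32, 8.15, 9.11 and 9.25 CPM at 32 weeks, with a log2 fold change of 0.85 against 12 weeks (SE 0.27; p 0.00433, adjusted p = 0.0767 by edgeR), and in 22 of 25 pairs the older mouse was higher. In SO it was at 3.83, 5.29, 5.87, 5.89 and 8.21 CPM, with a log2 fold change of 0.78 (SE 0.27; p 0.00831, adjusted p = 0.0867 by edgeR). Neither passed the threshold. In PF it was at 4.01, 5.15, 7.65, 8.20 and 8.27 CPM, and the log2 fold change was 0.095 (SE 0.27; adjusted p = 0.937). The difference of that change between PF and SO was −0.68 (SE 0.38; adjusted p = 0.611), and between PF and LO −0.75 (SE 0.38; adjusted p = 0.651), so a difference between diets in the change was not shown. The 8 macrophage markers were all higher at 32 weeks in LO (median log2 fold change 0.94) and SO (0.98, with 4 of 8 called), and their median was 0.055 in PF.

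Ptgs1 was higher at 32 weeks by 0.57 in LO (SE 0.23; p 0.0175, adjusted p = 0.143 by edgeR), 0.42 in SO (SE 0.23; adjusted p = 0.316) and 0.27 in PF (SE 0.23; adjusted p = 0.717). In LO at 12 weeks it was at 5.36, 6.22, 9.17, 10.9 and 15.6 CPM, and the 15.6 CPM of mouse 4 was the only value above the 32-week group. Alox5 in LO was at 0.598, 0.758, 1.11, 1.18 and 1.52 CPM at 12 weeks, and 32 against 12 weeks was 0.84 (SE 0.35; p 0.0217, adjusted p = 0.160 by edgeR). The other values for Alox5 were 0.13 in SO (SE 0.35) and −0.096 in PF (SE 0.34), and the difference of the change between PF and LO was −0.94 (SE 0.49; adjusted p = 0.660). For the change of a diet difference over time, edgeR and DESeq2 called 0 of the 10 in each of the 3 pairs of diets (background 0% by edgeR; by DESeq2 0.259% in PF against SO, 0.0844% in PF against LO and 0% in LO against SO), and at an unadjusted p under 0.05 1 of 10, Ptgds, passed in PF against SO (background 9.49%) and 0 in PF against LO (7.79%) and in LO against SO (3.33%).

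The rest of the pathway was given by 65 further genes, of which 48 passed the filter over all mice. All 4 transport and inactivation genes, all 6 of leukotriene synthesis and 8 of 9 prostanoid synthases were expressed, while 7 of 17 phospholipases A2 and 3 of 4 other lipoxygenases were not. Between diets 0 of the 45 genes tested at 12 weeks and 0 of the 46 at 32 weeks passed in edgeR. At an unadjusted p under 0.05 there were 6 higher and 1 lower in PF against SO, 4 and 0 in PF against LO and 1 and 1 in LO against SO at 12 weeks, and 3 and 4, 2 and 4, and 1 and 0 at 32 weeks. The share of all genes at that p was 7.99%, 9.24% and 4.28% in the same order at 12 weeks. It was 10.8%, 8.6% and 3.48% at 32 weeks.

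At 12 weeks DESeq2 called 2 higher in PF against SO (background 1.24%) and 0 in PF against LO (0.524%) and LO against SO (0%). At 32 weeks it called 1 higher and 2 lower in PF against SO (0.699%), 1 lower in PF against LO (0.526%) and 0 in LO against SO (0.0433%). It gave no adjusted p for 19 of 45 pathway genes in PF against LO at 12 weeks and for 9 of 46 in PF against SO at 32 weeks. Tbxas1, thromboxane synthase, differed by 1.14 in PF against SO at 12 weeks (SE 0.25; adjusted p = 0.138 by edgeR, 0.00523 by DESeq2), at 4.07 ± 1.21 against 1.85 ± 0.143 CPM (SD, n = 5). Pla2g7, the platelet-activating factor acetylhydrolase, differed by 0.54 in the same comparison (SE 0.14; adjusted p = 0.184 by edgeR, 0.0376 by DESeq2). At 32 weeks Pla2g4f, a cytosolic phospholipase A2 related to Pla2g4a, was at 6.71 ± 0.505 CPM in PF, 10.7 ± 1.45 in SO and 10.7 ± 1.79 in LO (SD, n = 5). PF lay below both other diets with no overlap of mice, at −0.65 against SO (SE 0.13; adjusted p = 0.204 by edgeR, 0.00266 by DESeq2) and −0.66 against LO (SE 0.13; adjusted p = 0.226 by edgeR, 0.00150 by DESeq2). Groups did not overlap in 2.16% of all genes in PF against SO and in 1.12% in PF against LO at that time. In PF against SO at 32 weeks Pla2g4c, another cytosolic phospholipase A2, differed by −0.58 (SE 0.15; adjusted p = 0.278 by edgeR, 0.0296 by DESeq2). Ephx2, the soluble epoxide hydrolase, differed by 1.81 (SE 0.50; adjusted p = 0.304 by edgeR, 0.0298 by DESeq2), with a range of 1.62 to 12.2 CPM in PF and 1.20 to 2.94 CPM in SO. The calls of these 5 genes thus depended on the tool. Other markers moved in the same comparisons at 32 weeks, none of them called by edgeR, and their part was not tested. All 4 red blood cell markers were higher in PF than in SO (median 2.58) and in PF than in LO (1.53), adipocyte markers were higher in PF in 4 of 5 (1.84) and 5 of 5 (1.21), and all 4 basal epithelium markers were lower in PF (−0.20 against SO, −0.58 against LO). Mast cell markers were higher in PF in 4 of 5 (1.20) and 5 of 5 (0.38), and eosinophil markers in 3 of 3 (1.145) and 2 of 3 (0.067). All T cell (−0.58) and B cell (−0.82) markers were lower in PF than in SO. Luminal epithelium markers were higher in PF in 6 of 8 in both comparisons (0.196 against SO, 0.217 against LO). All 5 smooth muscle markers were lower in PF (−0.124 against SO, −0.062 against LO). All 8 macrophage markers were lower in PF than in LO (−0.32), and 3 of 8 were higher in PF than in SO (−0.028). In PF against SO at 12 weeks, where Tbxas1 and Pla2g7 differed, all 8 macrophage markers were higher (0.91) and all 5 smooth muscle markers lower (−0.13). The B cell, T cell and endothelium markers were all higher there too, as given above, and the part of these markers was not tested either. Tbxas1 overlaps Hipk2 on the opposite strand, and the strand setting of the counting is not given in the sources used here.

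**Figure D4:**
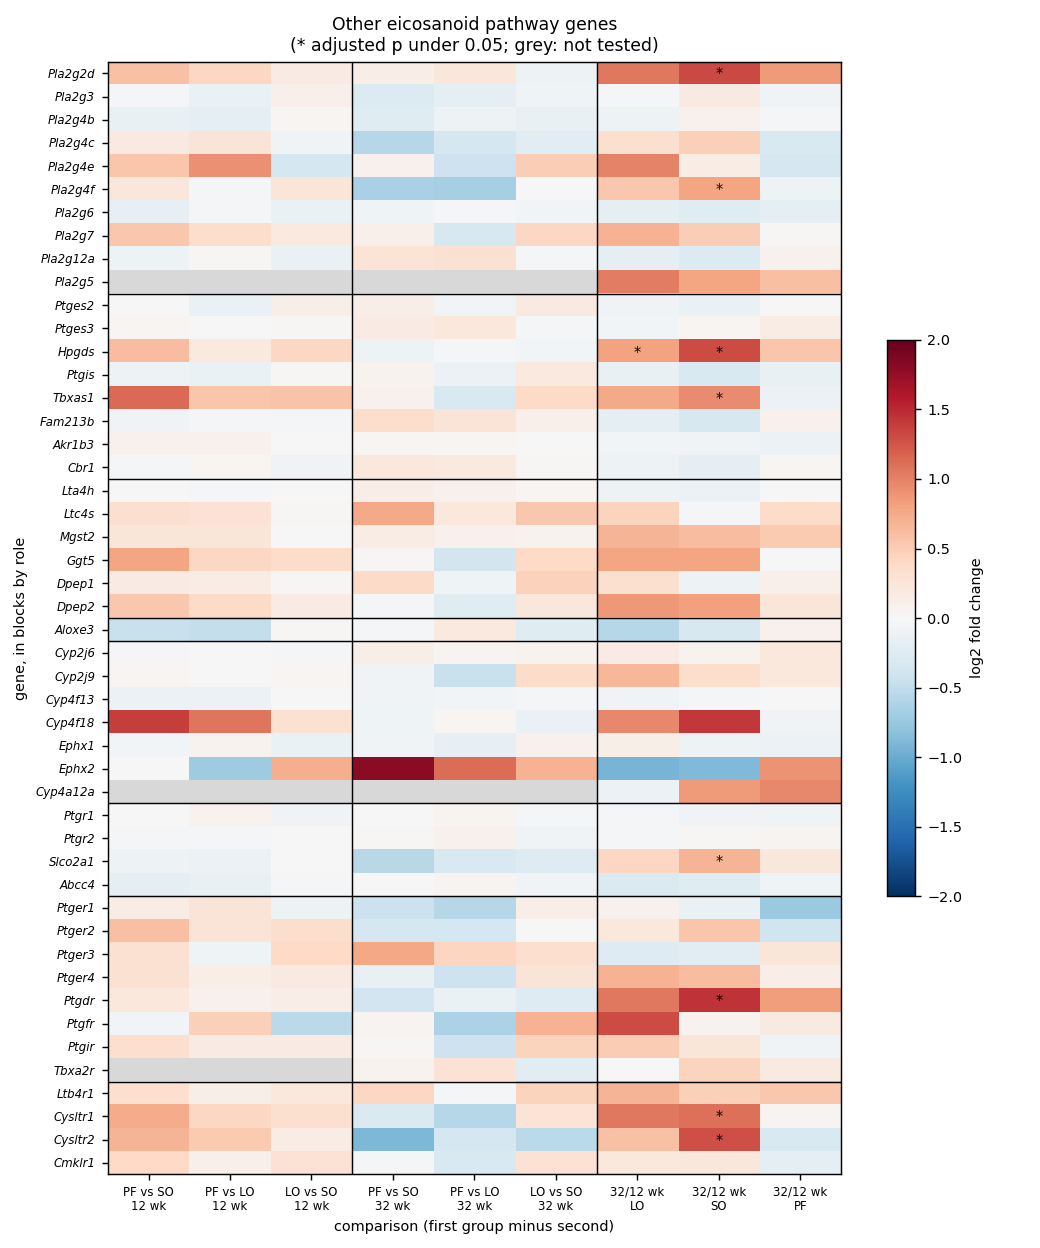
log2 fold changes (colour, from −2 to 2) of the 48 pathway genes that were expressed, in rows by role, for the 6 diet comparisons and for 32 against 12 weeks in each diet, with grey for genes not tested. Asterisks mark an adjusted p under 0.05 by edgeR; they stand on 8 genes in SO and 1 in LO, all of them higher at 32 weeks.

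With the length of feeding, 8 of the 48 pathway genes rose in SO (background 6.5%), 1 rose in LO (2.7%) and 0 in PF (0.0301%), and none fell. Hpgds, the hematopoietic prostaglandin D synthase of mast cells and other leukocytes, rose in both SO and LO. In SO it went from 1.88 ± 0.327 to 4.63 ± 1.45 CPM (log2 1.30, SE 0.22, adjusted p = 0.00266) and in LO from 2.52 ± 0.499 to 4.41 ± 1.20 CPM (0.80, SE 0.22, adjusted p = 0.0463, SD, n = 5, edgeR). In PF the values were 2.90 ± 0.672 and 4.24 ± 0.615 CPM (0.55, SE 0.22, adjusted p = 0.391). Ptgds, with 13 to 51 reads per mouse, did not pass the test in any diet (−0.49 in SO, −0.042 in LO and 0.38 in PF, each with an SE of 0.30). The 2 prostaglandin D synthases were not tested against each other. In SO the phospholipases Pla2g4f (0.79, SE 0.16) and Pla2g2d (1.32, SE 0.36), the thromboxane synthase Tbxas1 (0.95, SE 0.29) and the prostaglandin transporter Slco2a1 (0.68, SE 0.20) also rose. The receptors that rose in SO were Ptgdr for prostaglandin D2 (1.45, SE 0.43) and the cysteinyl leukotriene receptors Cysltr1 (1.11, SE 0.32) and Cysltr2 (1.29, SE 0.35), the last at 26 counts or fewer in any mouse.

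DESeq2 called 10 pathway genes in SO (background 9.14%), 8 in LO (6.48%) and 0 in PF (0.308%), all higher at 32 weeks. Markers of leukocytes moved with these genes in SO, and their part was not tested. In SO, 5 of 5 T cell markers and 4 of 4 B cell markers rose with time, with medians of 2.31 and 3.17 on the log2 scale. All 8 macrophage markers were higher too, and 4 of those 8 were called. In LO no macrophage, T cell or B cell marker was called, though all 8, all 5 and all 4 were higher, while 1 of 3 eosinophil markers tested and 3 of 4 basal epithelium markers were called higher. Mast cell markers, none of them called, had a median log2 change of 0.065 in SO, 0.94 in LO and 0.94 in PF, beside Hpgds changes of 1.30, 0.80 and 0.55. The differences of the SO and PF changes were not called by edgeR for any of the 8 genes, and the smallest adjusted p among the pathway genes was 0.221, for Pla2g4f (−0.89, SE 0.22; 0.0462 by DESeq2).

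Across the 30 mice, after each group's mean was removed, some of the 10 genes varied together. The highest values of Pearson's r on log2 CPM were 0.76 for Ptges with Alox12, 0.72 for Ptges with Hpgd and 0.71 for Alox5 with Alox5ap. Libraries are shared by the points, so these are descriptions of the same tissue pieces. The gene nearest to Hpgd among 16427 was Upb1 (r = 0.95), then Stmnd1 and Chn2, and the gene nearest to Ptgs2 was Thbs1 (0.94), then the immediate early genes Egr2 (0.83) and Fosb (0.82).

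Alox5ap was nearest to Vsir (0.91), Pros1 and Clec10a, Alox5 to Mmp19 (0.89), C1qtnf1 and Plau, and Alox15 to Gapt (0.84), Rab44 and Ccr3 (0.82), the last a chemokine receptor of eosinophils. The eosinophil list of 4 genes, which holds Ccr3, was low, with group medians of its summed level from 0.263 to 3.30 CPM and Epx, a defining marker, under 0.1 CPM at its median. Ptgs1 was nearest to Gsdmc2 (0.89), Gsdmc3 and Sestd1, and Ptges to Crym (0.83), Axin2 and Gsto1. Alox12 was nearest to Map1b (0.82), Pkp1 and Sorcs1. For Pla2g4a and Ptgds the nearest genes were less alike, at 0.75 (Bhlhb9) and 0.73 (Golga7).

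**Figure D5:**
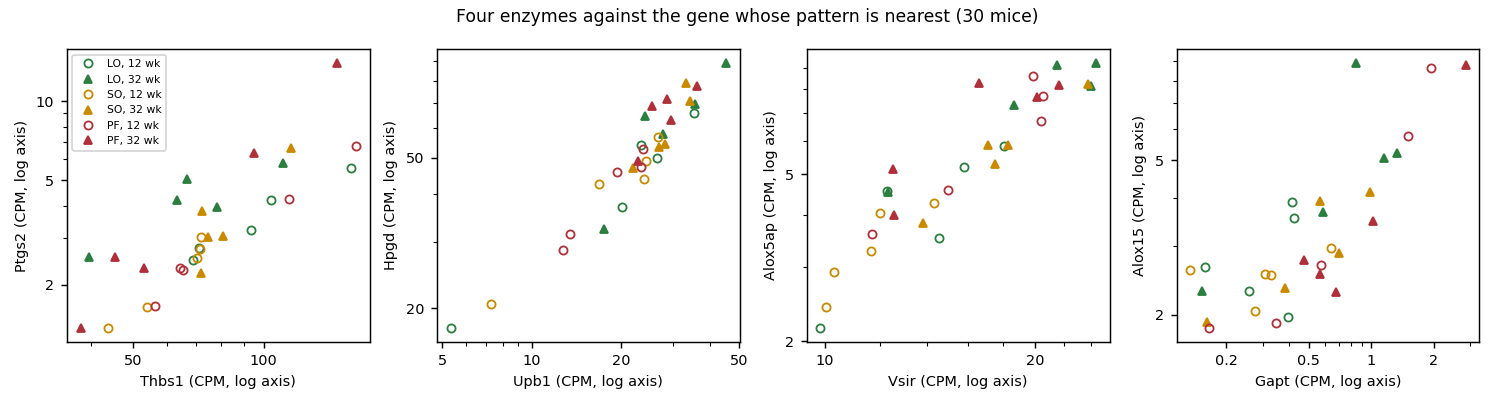
Level of Ptgs2, Hpgd, Alox5ap and Alox15 in each of the 30 mice (vertical, CPM, log axis) against the gene whose pattern was nearest to it (horizontal, CPM, log axis), with open circles for 12 weeks, filled triangles for 32 weeks and colours for diets. The correlation after removing group means was 0.95 for Hpgd with Upb1, 0.94 for Ptgs2 with Thbs1, 0.91 for Alox5ap with Vsir and 0.84 for Alox15 with Gapt. Each panel holds mice of all 3 diets, but not at every level. For Alox15 the highest SO mouse was at 4.13 CPM, against 8.90 in LO and 8.76 in PF. For Ptgs2 the highest was at 14.0 CPM in PF, against 6.61 in SO and 5.80 in LO.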

How the data were processed

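The authors extracted total RNA, made stranded mRNA libraries and sequenced them. The submitters' processing notes name TopHat, TopHat2, HTSeq and DESeq2 and the build GRCm38.p6. The deposited tables hold raw read counts per gene, not normalized. The annotation and the strand setting of the counting are not given in the sources used here.

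Of 39179 identifiers, 37693 had a symbol in the GENCODE M21 annotation. The 10 genes, the 65 pathway genes and the marker lists were chosen with earlier results of these data known. All 10 are named. Of the pathway genes, those called are named, or at most the 3 with the smallest p where none was called, and for each of the 10 the 3 nearest by r. Some of the 3 are shown in the heatmap only.

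Genes were filtered by filterByExpr, scaled by TMM and tested with edgeR 4.0.16 (R 4.3.3; quasi-likelihood F test, two-sided), with p-values adjusted by Benjamini-Hochberg over all genes. The 3 diets of a time were in 1 fit (15873 genes at 12 weeks, 16218 at 32), and comparisons of times in 1 fit of 30 mice (16605 genes). SEs come from the F statistic. DESeq2 1.42.0 was an alternative. The fit was tested on simulated data. No 2 libraries of the same group were alike within sampling noise (lowest chi-square per degree of freedom 24.5 over 60 pairs within groups). Mice were numbered in the labels, which name separate samples, and the tests set differences between groups against the spread between mice.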

Additional observations from a re-analysis of the deposited data

Results flagged for a closer look

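Mouse 5 of PF at 32 weeks had the highest Alox15 level of its group, 8.76 CPM, against 3.49 CPM for the next mouse, a gap that took up 0.815 of the group's range. It was picked out as a mouse far from the others of its group. Of 60 combinations of gene and group that were checked, 1 was picked out, where chance gives about 3.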

How the results depend on the processing

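The count of the 10 genes past the threshold was 0 in every comparison of diets and of changes over time under all alternatives, and changed in 2 comparisons of times. In 32 against 12 weeks in LO it was 1 by DESeq2 (Alox5ap) and ranged from 0 to 1 when 1 mouse was left out, with Ptgs1 called without mouse 4 of LO at 12 weeks (log2 0.85, adjusted p = 0.0286, edgeR) and Alox5ap called without mouse 4 of LO at 32 weeks (adjusted p = 0.0309). In SO it ranged from 0 to 1, with Alox5ap called without mouse 1 of SO at 32 weeks (log2 0.91, adjusted p = 0.0423, edgeR). Of 2550 recomputed log2 fold changes of the 10 genes, 2375 kept their sign and 175 did not, none of those called. DESeq2 gave no adjusted p for Ptgds and Alox5 in PF against LO at 12 weeks or for Ptgds in PF against SO at 32 weeks. The cause of the changed calls was not tested.

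Counts over all genes moved more. DESeq2 against edgeR gave 196 against 0 in PF against SO and 83 against 0 in PF against LO at 12 weeks, and at 32 weeks 113 against 0 in PF against SO, 85 against 0 in PF against LO and 7 against 0 in LO against SO. For 32 against 12 weeks DESeq2 gave 1075 against 448 in LO and 51 against 5 in PF, and a fit of only the 10 mice of the diet gave 57 in LO and 0 in PF. At least 10 counts in every mouse gave 294 in LO and 0 in PF. With 1 mouse left out the count ranged from 47 to 1043 in LO (lowest without mouse 3 at 12 weeks), from 226 to 1556 in SO (1079 with all mice, lowest without mouse 4 at 32 weeks), from 0 to 7 in PF, and up to 131 in PF against SO at 12 weeks (without mouse 5 of PF). The setting without the mice numbered 1 was chosen after seeing the data.

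Mice of different groups share replicate numbers, and no label says that a number marks a shared litter, batch or day. Deviations from group means correlated at a mean of 0.0559 between mice of the same number at 12 weeks (5 of 15 pairs over 0.1) and 0.132 at 32 weeks (10 of 15), against −0.0137 and −0.0291 between different numbers (18 of 60 over 0.1 at each time). Since not every pair was over 0.1, the numbers were not taken as pairs, and the replicate block is given only here. With the block 0 of the 10 genes were called in every comparison, and all genes called were 668 in LO, 1224 in SO and 6 in PF for 32 against 12 weeks. Counting error was largest for Ptgds and Alox5, whose medians were 25.5 and 36.5 reads.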
